A study of Homo sapiens with 4 samples.

Results

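The HOX genes of the 4 human HOX clusters were examined in H1299 and HCT116 cells grown with a solvent or with a pair of epigenetic inhibitors. Members were the gene names made of HOXA, HOXB, HOXC or HOXD and a number. There were 37 of them among the 43296 names of the deposited gene table, 11 of HOXA, 9 of HOXB, 9 of HOXC and 8 of HOXD. HOXB4 and HOXD4 occur in that table only under names that join them to another gene, so they were not members. Of the 37, 29 had at least 100 counts in 1 or more libraries, 10 had at least 100 in all 4, and 8 stayed below 100 in every library. Those 8 were HOXA2, HOXA6, HOXB1, HOXC11, HOXC12, HOXD3, HOXD10 and HOXD12.

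HOX genes encode homeodomain transcription factors that give cells their position along the head-to-tail axis of the embryo. They lie in 4 clusters, and the order of the genes along a cluster matches the order in which they are expressed: low-numbered (anterior) paralogues towards the head, high-numbered (posterior) paralogues towards the tail and the tips of the limbs. Adult cells keep part of this pattern. Polycomb complexes hold HOX genes silent, trithorax and MLL complexes keep them active, and DNA methylation of HOX clusters is common in cancer cells. Many HOX proteins bind DNA together with cofactors of the TALE class (the PBX, MEIS and PKNOX proteins). In GENCODE v29 (GRCh38) the members of HOXA lie on chromosome 7 between 27092993 and 27200106, those of HOXB on chromosome 17 between 48528526 and 48729178, those of HOXC on chromosome 12 between 53938765 and 54056030, and those of HOXD on chromosome 2 between 176092891 and 176190907. HOXA and HOXB are read from the minus strand, and HOXC and HOXD from the plus strand.

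H1299 is a line from a human non-small cell lung cancer and HCT116 a line from a human colorectal cancer. Cells of each line, at passage 5 to 10, received either DMSO alone or a pair of inhibitors together. These were the DNA methyltransferase inhibitor DAC (decitabine, 500 nM, 72 h) and the histone deacetylase inhibitor SB939 (500 nM, 18 h). The medium was renewed every 24 h in all groups, those with DMSO included. The combined treatment is written DAC+SB, and cells with DMSO alone are also called untreated. Single cells were sequenced with the 10x Genomics 5′ assay, which reads polyadenylated RNA from the start of the transcript. The 4 groups, each line with either DMSO or DAC+SB, were 1 library each. Neither inhibitor was given alone, so their effects cannot be told apart. With 1 library a group, a difference within a line or within a treatment has no replicate error and no p-value is given. A fit over all libraries with line and treatment as additive terms was not run, since it would take any difference between the lines in response as error. Intervals in brackets are 95% intervals for counting error only, and no difference between libraries has a replicate check.

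The libraries held 3578 to 4327 cells and 38927267 to 64524196 counts of genes and transposable elements. Cells had a median of 17369.5 and 15784.5 counts in untreated and treated H1299, 16257.5 in untreated HCT116 and 8449 in treated HCT116. Mitochondrial genes took a median of 8.33% and 8.87% of the counts of H1299 cells and of 15.8% and 18.6% of those of HCT116 cells, untreated and treated. Between 18 and 30 cell barcodes were shared by any pair of libraries, and 131 barcodes occurred in more than 1. Levels are counts per 1000000 (CPM) of all gene and transposable element counts of the library. Of 8 H1299 markers, the summed level was 2754 and 1573 CPM in the H1299 libraries with DMSO and DAC+SB, against 87.5 and 377 CPM in the HCT116 libraries. Of 9 HCT116 markers it was 299 and 353 CPM in the HCT116 libraries, against 27.0 and 62.6 CPM in the H1299 libraries. Each list was higher in its own line with both treatments, but some markers were not kept apart with DAC+SB. UCHL1, an H1299 marker, had 0 counts in untreated and 82.0 CPM in treated HCT116. KRT19, an HCT116 marker, stood at 0.0465 CPM in untreated and 42.2 in treated H1299. CDX1 and CEACAM6, also listed for HCT116, had 0 counts in HCT116 DMSO. Of 6 markers of blood, endothelial and connective tissue cells, the sum was 0.418 and 0.112 CPM with DMSO and 10.1 and 3.03 with DAC+SB in H1299 and HCT116. The part of these shifts in the HOX values was not tested.

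The promoters shown here belong to HOX genes that differed in the direction of their response. HOXD1, HOXD10, HOXD11 and HOXB1 had at most 3 counts in each DMSO library and were counted in both DAC+SB libraries. HOXA7 and HOXA9 were counted in all libraries and were lower with DAC+SB in both lines. Each sequence is the 250 bases before the RefSeq start site (GRCh38.p14), 5′ to 3′ on the strand of the gene, with CG dinucleotides, the sites of DNA methylation, in capitals. The windows are chr2:176188418-176188667 (plus), chr2:176116528-176116777 (plus), chr2:176107030-176107279 (plus), chr17:48531012-48531261 (minus), chr7:27156676-27156925 (minus) and chr7:27165538-27165787 (minus), in the order printed.
HOXD1: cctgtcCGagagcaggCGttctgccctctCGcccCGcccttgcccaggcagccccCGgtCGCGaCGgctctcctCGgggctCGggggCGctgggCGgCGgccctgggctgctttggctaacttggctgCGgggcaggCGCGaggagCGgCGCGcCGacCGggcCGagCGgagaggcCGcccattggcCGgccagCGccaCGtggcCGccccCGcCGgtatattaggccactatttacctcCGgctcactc
HOXD10: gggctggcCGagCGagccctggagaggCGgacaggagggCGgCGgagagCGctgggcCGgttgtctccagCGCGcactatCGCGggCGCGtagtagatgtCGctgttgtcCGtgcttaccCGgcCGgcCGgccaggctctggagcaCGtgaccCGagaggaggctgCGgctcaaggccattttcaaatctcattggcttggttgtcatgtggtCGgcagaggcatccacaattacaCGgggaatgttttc
HOXD11: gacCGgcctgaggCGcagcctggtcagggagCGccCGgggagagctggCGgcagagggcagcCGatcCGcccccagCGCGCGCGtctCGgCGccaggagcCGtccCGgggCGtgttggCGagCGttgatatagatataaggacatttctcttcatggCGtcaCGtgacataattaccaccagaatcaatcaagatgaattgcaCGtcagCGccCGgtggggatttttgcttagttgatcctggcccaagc
HOXB1: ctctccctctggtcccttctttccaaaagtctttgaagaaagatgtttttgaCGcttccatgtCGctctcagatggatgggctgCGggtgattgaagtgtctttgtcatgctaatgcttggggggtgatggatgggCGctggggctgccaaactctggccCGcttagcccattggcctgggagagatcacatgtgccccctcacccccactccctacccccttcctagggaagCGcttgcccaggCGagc
HOXA7: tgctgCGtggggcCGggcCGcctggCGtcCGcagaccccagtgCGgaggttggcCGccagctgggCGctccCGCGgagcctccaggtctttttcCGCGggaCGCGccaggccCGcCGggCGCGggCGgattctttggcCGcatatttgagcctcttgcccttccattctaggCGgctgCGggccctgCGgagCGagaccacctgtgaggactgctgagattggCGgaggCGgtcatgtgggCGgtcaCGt
HOXA9: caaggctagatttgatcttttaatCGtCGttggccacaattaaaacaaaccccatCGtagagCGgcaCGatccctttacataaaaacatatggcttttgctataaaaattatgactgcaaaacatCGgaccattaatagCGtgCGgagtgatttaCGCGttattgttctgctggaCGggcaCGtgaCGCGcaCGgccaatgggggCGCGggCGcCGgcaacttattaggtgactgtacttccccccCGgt

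These windows held 31 CG sites in HOXD1, 23 in HOXD10, 23 in HOXD11, 7 in HOXB1, 28 in HOXA7 and 20 in HOXA9. These 6 windows were picked by the response of their genes, so nothing is read from their CG density. Of the 37 members, 19 had an entry in the RefSeq promoter table, with 25 windows in all, 1 of them shared by HOXC4 and HOXC5. The median over those 25 windows was 20 CG sites (range 0 to 40), and 18 windows held more than the median of 11 over all 35116 promoters (quartiles 3 and 23). Searched on both strands, the TATA motif TATAAA occurred in 5 member windows and in 10.7% of all promoters. TGATNNAT, a core shared by HOX-PBX composite sites, occurred in 3 member windows (HOXA2, HOXB1 and HOXD11) and in 6.47% of all promoters. A match of letters is a description of the window and was not tied to binding. The files give no methylation values for these promoters.

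With DAC+SB, the summed HOX counts were lower in both lines while those of HOXD were higher in both. Gene by gene, 15 of the 27 HOX genes with at least 100 counts in an H1299 library were above a ratio of 1 there, as were 6710 of all 14610 genes. In HCT116 7 of 23 HOX genes and 5498 of all 13539 genes were. The summed level of the 37 genes was 384 CPM in untreated and 285 in treated H1299, and 288 in untreated and 162 in treated HCT116. The DAC+SB over DMSO ratio was 0.740 (0.726 to 0.755) in H1299 and 0.563 (0.547 to 0.579) in HCT116. Without HOXB2 and HOXB7, 14350 of the 24807 HOX counts of untreated H1299 were left. The ratio without these genes was 0.914 (0.892 to 0.936) in H1299 and 0.616 (0.597 to 0.636) in HCT116, so most of the H1299 deficit lay in HOXB2 and HOXB7. They were the members with most counts in untreated H1299 and both were lower with DAC+SB, so leaving them out had to bring the H1299 ratio nearer to 1.

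The clusters differed in direction. Summed HOXD counts stood at 4.88 and 18.1 CPM in H1299 with DMSO and DAC+SB, a ratio of 3.71 (3.27 to 4.22). In HCT116 the sums were 2.47 and 14.5 CPM, a ratio of 5.87 (4.90 to 7.05). Part of the 565 HOXD counts of treated HCT116 lay in extra features, numbered after the gene name, that HCT116 DMSO did not list. Among these were 69 counts of HOXD8 and 41 of HOXD1, and without such features the HCT116 ratio is lower. HOXA was lower with DAC+SB, at 70.7 against 50.8 CPM in H1299 (ratio 0.718 [0.686 to 0.752]) and 160.1 against 61.8 CPM in HCT116 (ratio 0.386 [0.369 to 0.404]). HOXB was lower as well, with ratios of 0.630 (0.613 to 0.647) and 0.581 (0.552 to 0.612). HOXC differed least, with an H1299 ratio of 0.847 (0.816 to 0.879) and an HCT116 ratio of 0.938 (0.876 to 1.005), where the interval includes 1. Some HOXC counts of treated cells also lay in numbered features that the DMSO library did not list. Among these were 328 of HOXC9 and 196 of HOXC10 in H1299, and 64 of HOXC9 in HCT116. Without such features both HOXC ratios are lower and further from 1. As a share of the HOX counts of a library, HOXD went from 1.27% to 6.37% in H1299 and from 0.859% to 8.95% in HCT116. HOXA made up 55.6% of HOX counts in untreated and 38.1% in treated HCT116, whereas HOXB made up 55.0% and 46.8% in the H1299 libraries.

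**Figure D1:**
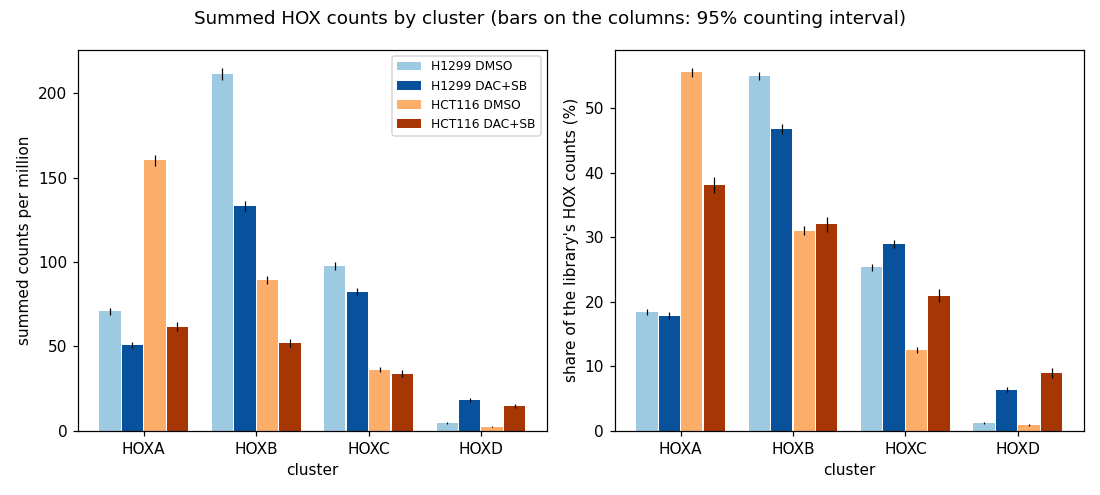
Summed HOX counts of each cluster in CPM (left) and as a percentage of the HOX counts of the library (right), 1 column per library, with 95% counting intervals as vertical lines. HOXD is low with DMSO (4.88 CPM in H1299 and 2.47 in HCT116) and higher with DAC+SB (18.1 and 14.5), while HOXA in HCT116 is 160.1 CPM with DMSO and 61.8 with DAC+SB.

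By position along the clusters, HOXB2 set the direction of the anterior sum in HCT116. Anterior genes (paralogues 1 to 3) summed to 107 CPM in untreated H1299 and 52.3 in treated H1299, with a ratio of 0.489 (0.469 to 0.510). In HCT116 they summed to 14.3 and 23.6 CPM, a ratio of 1.65 (1.51 to 1.82). HOXB2 held 86.4 of the 107 CPM in untreated H1299 and 12.5 of the 23.6 CPM in treated HCT116. Without HOXB2 the anterior ratio was 0.842 (0.777 to 0.913) in H1299 and 0.799 (0.711 to 0.898) in HCT116, so the direction in HCT116 turned and the sum was lower with DAC+SB in both lines. Central genes (4 to 8) were lower with DAC+SB in both lines, with ratios of 0.704 (0.684 to 0.724) and 0.371 (0.353 to 0.391). Posterior genes (9 to 13) had an H1299 ratio of 1.12 (1.08 to 1.16) and an HCT116 ratio of 0.623 (0.599 to 0.647). In treated H1299, 328 counts of HOXC9 and 196 of HOXC10 lay in extra numbered features that H1299 DMSO did not list. Without such features the posterior H1299 ratio is nearer to 1, so its rise depends on how features are counted. The posterior genes of HOXD had 0 counts in untreated and 160 in treated HCT116.

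A gene was called when its ratio was at least 4 or at most 0.25 and 1 of the compared libraries held at least 100 of its counts. In H1299, 27 HOX genes had that many counts, and 6 of them (22.2%) were at least 4-fold higher with DAC+SB: HOXB13, HOXC5, HOXC13, HOXD1, HOXD8 and HOXD11. Among all 14610 genes with that many counts, 11.0% were. No HOX gene was at least 4-fold lower in H1299, and 0.349% of all genes were. In HCT116, 2 of 23 HOX genes (8.70%) were at least 4-fold higher, HOXB2 and HOXC10, and 9.63% of all 13539 genes were. Another 3 (13.04%) were at least 4-fold lower, HOXA3, HOXA10 and HOXB7, and 3.69% of all genes were. With a minimum of 20 counts, 10 of 35 HOX genes (28.6%) were higher in H1299, against 19.9% of all genes, and 8 of 33 (24.2%) in HCT116, against 18.6%. With a minimum of 1 count it was 10 of 37 (27.0%) against 15.1%, and 9 of 37 (24.3%) against 20.2%. Whether any of these shares is particular to HOX genes was not tested. Some genes have extra features with a number after the name. The calls of HOXD1 and HOXD11 were lost under a stricter rule for numbered features, which keeps them only if both compared libraries list them, that of HOXD11 also without the 5% of cells with most counts, and that of HOXC10 with a mean over cells.

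At a 2-fold threshold 10 of the 27 genes were higher and 3 lower in H1299, against 18.3% and 7.34% of all genes. In HCT116 5 of 23 were higher and 9 lower, against 16.2% and 20% of all genes. The median log2 ratio of the HOX genes was 0.34 in H1299, beside -0.07 over all genes, and -0.67 in HCT116, beside -0.23 over all genes. Under the stricter rule for numbered features the HOX medians were 0.12 and -0.76, beside -0.12 and -0.28 over all genes. With joined names added they were 0.19 and -0.88, beside -0.07 and -0.23. Of the 21 HOX genes that had enough counts in both lines, 6 were higher with DAC+SB in both, 10 lower in both, 4 higher in H1299 and lower in HCT116, and 1 (HOXB2) lower in H1299 and higher in HCT116. Between the lines, Pearson's r of the log2 ratios was 0.247 and Spearman's rho 0.382 over these 21 genes. Without HOXB2, left out after its values were seen, r was 0.579. The genes share their libraries and are not independent. The counts of agreement go by the side of 1 alone. Among them, HOXC9 in H1299 and HOXB3 in HCT116 have intervals that include 1. Of all genes, 7900 of 14610 in H1299 and 8041 of 13539 in HCT116 were below 1. Agreement between the lines over all genes was not computed, so these counts and correlations have no background beside them.

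**Figure D2:**
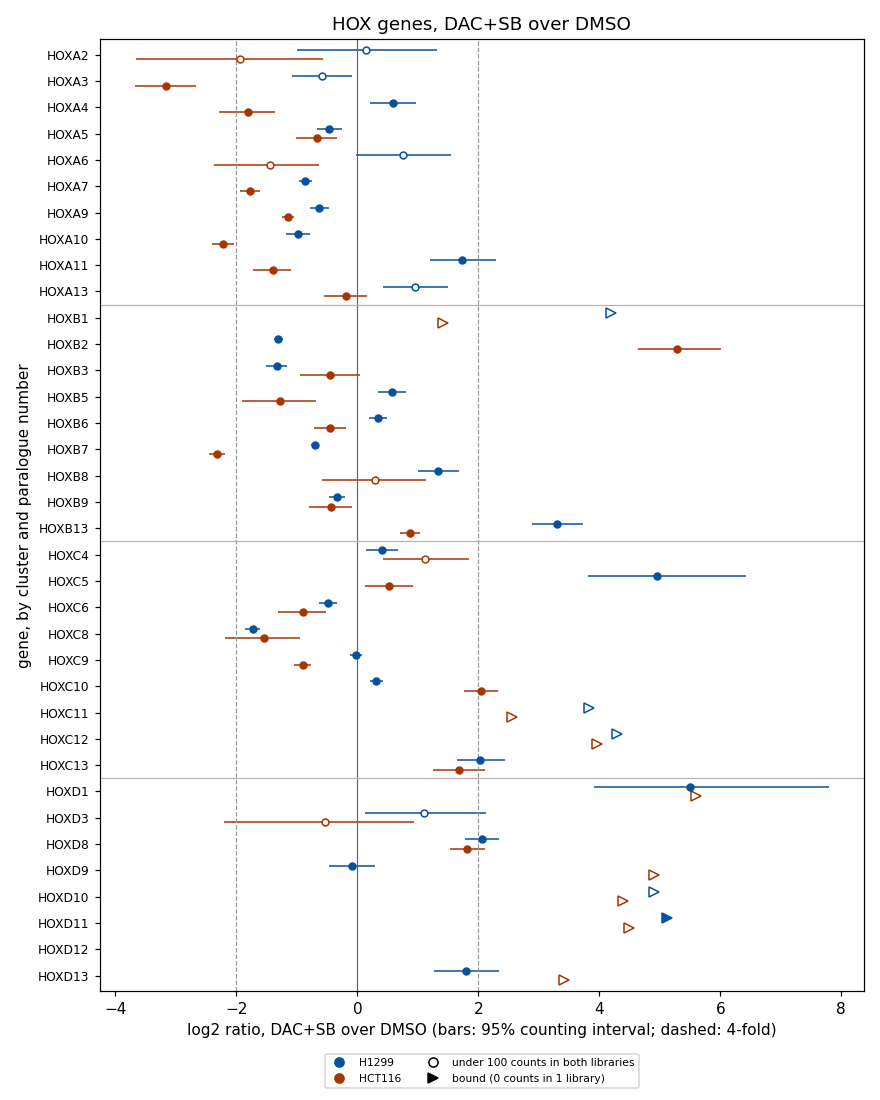
Log2 ratio of DAC+SB over DMSO for the HOX genes reported here in H1299 (blue) and HCT116 (brown), with 95% counting intervals; triangles are bounds for genes at 0 in the DMSO library, and open symbols have under 100 counts in both libraries. HOXD and the posterior HOXC genes lie mostly to the right of 0, HOXA genes of HCT116 mostly to the left, and HOXB2 on opposite sides in the lines (-1.31 and 5.29).

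More of the HOX genes were detected with DAC+SB. In H1299, 31 of the 37 genes had a count with DMSO and all 37 with DAC+SB. In HCT116, 28 had a count with DMSO and again all 37 with DAC+SB, although that library held the fewest counts. Among all 40877 names of a single gene, 12923 had 0 counts in untreated H1299 and 67.0% of them had a count with DAC+SB. In HCT116 it was 68.9% of 12991. With 6 and 9 HOX genes at 0, a difference from these shares was not tested. HOXB1, HOXC11, HOXC12, HOXD10, HOXD11 and HOXD12 had 0 counts in both DMSO libraries, and HOXD1, HOXD9 and HOXD13 in HCT116 DMSO only. Of these 9 genes, 6 belong to HOXD and 7 to the posterior paralogues. The 6 genes at 0 in both DMSO libraries had 342 counts together in H1299 DAC+SB and 129 in HCT116 DAC+SB. Against the limit of 3 counts that a count of 0 allows, the level of the sum was higher by at least 118 times in H1299 and by at least 69.2 times in HCT116. The genes of this sum were picked for their 0 counts with DMSO, so the sum could not come out lower with DAC+SB. No such sum was made over the other names at 0, so its size is not set against a background. Numbered features are listed from 10 counts a library, so a gene at 0 may have had counts in a feature that was not listed. These bounds hold only if it had none.

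HOXA held 11 members. HOXA3, which patterns the pharyngeal arches, stood at 1.36 CPM in H1299 with DMSO and 0.913 with DAC+SB, and at 8.48 in HCT116 with DMSO and 0.9505 with DAC+SB. The HCT116 DMSO library was the high one, and the other 3 lay close together. Its HCT116 ratio was 0.112 (0.0781 to 0.157). In H1299 it had under 100 counts in both libraries, 88 and 57.

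HOXA4 was measured at 1.52 CPM in H1299 with DMSO and 2.27 with DAC+SB, and at 4.34 in HCT116 with DMSO and 1.23 with DAC+SB, with an H1299 ratio of 1.498 (1.15 to 1.96) and an HCT116 ratio of 0.284 (0.204 to 0.387), on opposite sides of 1. HOXA5, a gene needed for lung development, was found at 7.45 CPM in H1299 with DMSO and 5.40 with DAC+SB, and at 4.21 in HCT116 with DMSO and 2.65 with DAC+SB. It was lower with DAC+SB in both lines, with ratios of 0.724 (0.628 to 0.834) and 0.628 (0.495 to 0.791). HOXA2, which patterns the hindbrain and the second pharyngeal arch, and HOXA6 were sparse, with 5 to 31 and 15 to 66 counts a library. Both were lower with DAC+SB in HCT116, with ratios of 0.260 (0.0788 to 0.673) and 0.366 (0.194 to 0.648), and their H1299 intervals include 1.

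HOXA7 stood at 32.2 CPM in H1299 with DMSO and 17.8 with DAC+SB, and at 32.4 in HCT116 with DMSO and 9.48 with DAC+SB. The DMSO libraries of the lines were level, and DAC+SB was lower in both, with an H1299 ratio of 0.552 (0.512 to 0.594) and an HCT116 ratio of 0.293 (0.261 to 0.327). HOXA9, a regulator of blood progenitors that is overexpressed in leukaemia, was counted at 12.99 CPM in H1299 with DMSO and 8.41 with DAC+SB, and at 62.5 in HCT116 with DMSO and 28.3 with DAC+SB. It was higher in HCT116 than in H1299 whatever the treatment, and lower with DAC+SB in each line (ratios 0.648 [0.579 to 0.723] and 0.453 [0.423 to 0.484]).

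HOXA10, known for its part in the uterus and hindlimb, had 657, 323, 2099 and 279 counts. Where 4 counts are listed like this, they are those of untreated and treated H1299, then of untreated and treated HCT116. Its level was 10.2 and 5.17 CPM in H1299 and 33.5 and 7.17 CPM in HCT116. HCT116 DMSO was 3 times or more above the others, and the ratios were 0.508 (0.443 to 0.581) and 0.214 (0.188 to 0.242). HOXA11, which patterns the forearm and uterus, was found at 0.604 CPM in H1299 with DMSO and 2.002 with DAC+SB, and at 7.18 in HCT116 with DMSO and 2.72 with DAC+SB. It was lower in H1299 than in HCT116 with both treatments, and the treated lines lay nearer to each other than the untreated ones. With DAC+SB the H1299 over HCT116 ratio was 0.735 (0.563 to 0.962), and under the stricter rule for numbered features it was 0.838 (0.636 to 1.11), an interval that includes 1. The ratios of DAC+SB over DMSO were 3.31 (2.30 to 4.88) in H1299 and 0.379 (0.304 to 0.469) in HCT116. HOXA13, a gene of the hand, foot and hindgut, was found at 0.728 CPM in H1299 with DMSO and 1.41 with DAC+SB, and at 3.001 in HCT116 with DMSO and 2.62 with DAC+SB. Its HCT116 ratio of 0.873 (0.679 to 1.12) has an interval that includes 1.

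HOXB held 9 members. HOXB2, which patterns the hindbrain, had 5574, 2182, 20 and 485 counts. That is 86.4 CPM (84.1 to 88.7) in untreated and 35.0 (33.5 to 36.4) in treated H1299, and 0.319 (0.195 to 0.493) in untreated and 12.5 (11.4 to 13.6) in treated HCT116. It was high in H1299, near the limit of detection in untreated HCT116, and intermediate in treated HCT116. The ratio was 0.405 (0.385 to 0.425) in H1299 and 39.0 (24.99 to 64.5) in HCT116. HOXB2 lies at chr17:48540894-48544989. All 5574 counts of H1299 DMSO were in the feature without a number, whereas H1299 DAC+SB had 1746 there and 436 in a numbered feature. In HCT116 DAC+SB, 402 of the 485 counts were in the numbered feature.

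HOXB1, a hindbrain gene activated by retinoic acid, had 0, 53, 0 and 5 counts, so it was counted with DAC+SB only. HOXB3 was found at 15.7 CPM in H1299 with DMSO and 6.25 with DAC+SB, and at 1.79 in HCT116 with DMSO and 1.31 with DAC+SB. H1299 had more than HCT116 with either treatment, and the H1299 ratio was 0.397 (0.352 to 0.447), like that of its neighbour HOXB2. Its HCT116 interval includes 1, with a ratio of 0.733 (0.516 to 1.03), but not with the stricter rule for numbered features (0.589 [0.401 to 0.849]) or with joined names added (0.542 [0.403 to 0.721]).

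HOXB5 was measured at 3.998 CPM in H1299 with DMSO and 5.94 with DAC+SB, and at 1.87 in HCT116 with DMSO and 0.771 with DAC+SB, with a ratio above 1 in H1299 (1.49 [1.26 to 1.75]) and below 1 in HCT116 (0.413 [0.267 to 0.621]). HOXB6 was measured at 10.6 CPM in H1299 with DMSO and 13.4 with DAC+SB, and at 6.32 in HCT116 with DMSO and 4.62 with DAC+SB, in the same pattern with smaller differences (1.26 [1.14 to 1.40] and 0.731 [0.610 to 0.875]). Under the stricter rule its HCT116 ratio was 1.03 (0.847 to 1.24), so that direction depends on the rule. HOXB7, which is often overexpressed in carcinomas, had 4883, 2895, 4147 and 514 counts. Its level was 75.7 CPM in untreated and 46.4 in treated H1299, and 66.2 in untreated and 13.2 in treated HCT116. The untreated lines lay within 1.14-fold of each other, and the treated HCT116 library was the low one. The ratios were 0.613 (0.585 to 0.642) and 0.199 (0.182 to 0.219).

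HOXB8 was found at 1.63 CPM in H1299 with DMSO and 4.12 with DAC+SB, and at 0.463 in HCT116 with DMSO and 0.565 with DAC+SB, with an H1299 ratio of 2.53 (2.01 to 3.21) and at most 29 counts in either HCT116 library. HOXB9 was found at 16.6 CPM in H1299 with DMSO and 13.2 with DAC+SB, and at 3.40 in HCT116 with DMSO and 2.52 with DAC+SB, with ratios of 0.796 (0.726 to 0.872) and 0.740 (0.577 to 0.945). HOXB13, a posterior gene known for its role in the prostate and set apart from the rest of its cluster at chr17:48724763-48729178, had 53, 505, 564 and 637 counts. It stood at 0.821 CPM in H1299 with DMSO and 8.09 with DAC+SB, and at 9.004 in HCT116 with DMSO and 16.4 with DAC+SB. H1299 DMSO was the 1 low library, and the ratio was 9.85 (7.41 to 13.3) in H1299 and 1.82 (1.62 to 2.04) in HCT116. HOXB13 was thus the only HOXB gene called higher with DAC+SB in H1299.

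HOXC held 9 members. HOXC4 was found at 3.21 CPM in H1299 with DMSO and 4.26 with DAC+SB, and at 0.495 in HCT116 with DMSO and 1.08 with DAC+SB, with an H1299 ratio of 1.33 (1.10 to 1.60). With the counts of joined names added, that H1299 log2 ratio went from 0.41 to -0.18, so its direction depends on how shared names are counted. HOXC5 had 6, 180, 116 and 104 counts, or 0.0930, 2.88, 1.85 and 2.67 CPM. Only H1299 DMSO was low, and the H1299 ratio was 31.0 (14.0 to 85.6) while that of HCT116 was 1.44 (1.10 to 1.90). The H1299 ratio was 18.1 (8.04 to 50.4) under the stricter rule for numbered features. HOXC5 lies at chr12:54032853-54035358, inside the annotated span of HOXC4, so that reads of these genes may be split between them.

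HOXC6 was found at 13.8 CPM in H1299 with DMSO and 9.88 with DAC+SB, and at 3.56 in HCT116 with DMSO and 1.90 with DAC+SB, lower with DAC+SB in both lines (0.714 [0.643 to 0.792] and 0.534 [0.405 to 0.698]). HOXC8, a gene of thoracic identity, was counted at 34.9 CPM in H1299 with DMSO and 10.5 with DAC+SB, and at 2.11 in HCT116 with DMSO and 0.719 with DAC+SB. It was the gene with the lowest H1299 ratio among the 27, 0.302 (0.276 to 0.329), and its HCT116 ratio of 0.341 (0.218 to 0.516) was alike. HOXC9, which sets thoracic motor neuron identity, was found at 23.4 CPM in H1299 with DMSO and 23.1 with DAC+SB, and at 24.6 in HCT116 with DMSO and 13.2 with DAC+SB. In H1299 its interval includes 1 (0.984 [0.915 to 1.06]), but under the stricter rule for numbered features the ratio was 0.760 (0.703 to 0.822). It was lower with DAC+SB in HCT116 (0.534 [0.482 to 0.590]).

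HOXC10, a gene of lumbar and hindlimb identity, had 1343, 1612, 149 and 382 counts. It stood at 20.8 CPM in H1299 with DMSO and 25.8 with DAC+SB, and at 2.38 in HCT116 with DMSO and 9.81 with DAC+SB. Both H1299 libraries were high and HCT116 DMSO was the low one. Its ratio was 1.24 (1.15 to 1.33) in H1299 and 4.13 (3.41 to 5.02) in HCT116, just past the 4-fold threshold. HOXC13, which controls hair and nail keratins, was found at 1.08 CPM in H1299 with DMSO and 4.44 with DAC+SB, and at 1.12 in HCT116 with DMSO and 3.57 with DAC+SB. Untreated lines were level, both treated libraries were higher, and the ratios were 4.09 (3.14 to 5.40) and 3.20 (2.38 to 4.32), on either side of the threshold. HOXC11 had 0, 41, 0 and 11 counts and HOXC12 had 0, 57, 0 and 29, so both were counted with DAC+SB only.

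HOXD held 8 members, and here most genes were nearly silent with DMSO. HOXD1 had 3, 131, 0 and 90 counts, so that all but 3 came from treated cells. Its level was 2.10 CPM (1.75 to 2.49) in H1299 DAC+SB and 2.31 (1.86 to 2.84) in HCT116 DAC+SB. The ratio was 45.1 (15.1 to 222) in H1299 and at least 48.3 in HCT116. Under the stricter rule for numbered features these were 26.2 (8.63 to 129.8) and at least 26.3. HOXD1 lies at chr2:176188579-176190907. HOXD3 was sparse, with 14, 29, 14 and 6 counts.

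HOXD8 was the HOXD gene counted in every library at 100 or more, at 2.05 CPM in H1299 with DMSO and 8.51 with DAC+SB, and at 2.25 in HCT116 with DMSO and 7.94 with DAC+SB. The untreated lines were close to each other, and both treated lines were higher. The ratios were 4.16 (3.43 to 5.07) and 3.53 (2.88 to 4.33). HOXD9 set the lines apart: it had 126, 115, 0 and 56 counts. H1299 did not differ beyond counting error, with a ratio of 0.943 (0.726 to 1.22), and HCT116 had 0 counts untreated and 1.44 CPM treated, which is at least 30.0-fold higher. Under the stricter rule for numbered features that HCT116 bound was 22.5.

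HOXD10 and HOXD11, genes of the limbs and the lower spine, were counted only in treated cells. HOXD10 had 0, 87, 0 and 39 counts and HOXD11 had 0, 101, 0 and 42. HOXD10 lies at chr2:176108790-176119942 and HOXD11 at chr2:176104216-176109754, so their annotated spans overlap. HOXD11 was at least 34.8-fold higher in H1299 and at least 22.5-fold higher in HCT116. For HOXD10 the bounds were at least 30.0 and at least 20.9. Under the stricter rule for numbered features they fell to 28.9 and 17.2 for HOXD11 and to 22.4 and 14.5 for HOXD10. HOXD13, the gene mutated in synpolydactyly, had 40, 134, 0 and 20 counts, with an H1299 ratio of 3.46 (2.42 to 5.06) and an HCT116 ratio of at least 10.7. That bound takes the 20 counts as observed, and their level in HCT116 DAC+SB was 0.514 CPM (0.314 to 0.793). HOXD12 had 3 counts in each treated library and none with DMSO, too few for a ratio.

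**Figure D3:**
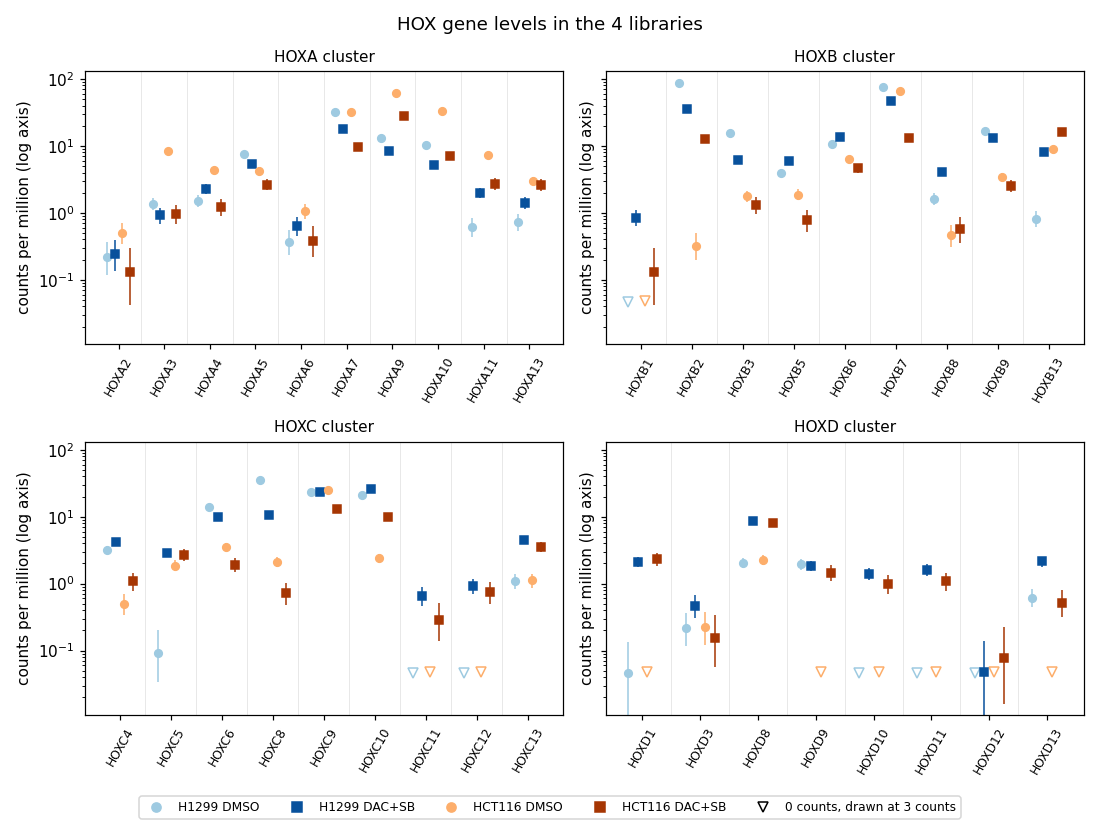
Level in CPM of the HOX genes reported here (log axis) in the 4 libraries, by cluster and paralogue number; vertical lines are 95% counting intervals and open triangles mark 0 counts, drawn at the level of 3 counts. The triangles sit in HOXB1, HOXC11, HOXC12 and HOXD and all belong to DMSO libraries.

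Set against each other, the treatment responses of the lines differed most for HOXB2 among the 28 genes with a count in all libraries. The difference between the lines in log2 ratio, H1299 less HCT116, was -6.59 (-7.24 to -5.94) for HOXB2, 4.43 (3.19 to 5.66) for HOXC5, 3.13 (2.53 to 3.73) for HOXA11, 2.58 (1.90 to 3.26) for HOXA3 and 2.44 (1.998 to 2.88) for HOXB13. It was 0.24 (-0.16 to 0.64) for HOXD8 and 0.36 (-0.20 to 0.92) for HOXC13. For HOXD8 and HOXC13 the interval includes 0, which bounds the difference but does not show that the lines respond alike. Under the stricter rule for numbered features the HOXD8 ratio was 4.77 (3.89 to 5.89) in H1299 and 2.74 (2.22 to 3.40) in HCT116, so its difference depends on the rule. Such differences were computed for these 28 genes only, so HOXD9 and the other genes at 0 in a library are not ranked.

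The design also compares the lines within each treatment. With DMSO, H1299 had more of HOXB and HOXC and HCT116 more of HOXA. The H1299 over HCT116 ratio of the cluster sums was 0.442 (0.426 to 0.457) for HOXA, 2.37 (2.29 to 2.44) for HOXB, 2.69 (2.57 to 2.83) for HOXC and 1.97 (1.62 to 2.41) for HOXD. HOXB2 held 86.4 of the 211 CPM of HOXB in H1299 and 0.319 of the 89.4 CPM in HCT116. Gene by gene, 7 of 8 HOXB genes with enough counts were above 1, as were 7556 of all 13796 genes. Over all HOX genes the ratio was 1.33 (1.31 to 1.36), and it was 1.00 (0.980 to 1.03) without HOXB2 and HOXB7. Of 25 HOX genes with enough counts, 7 (28.0%) were at least 4-fold higher in H1299, against 9.92% of all genes: HOXB2, HOXB3, HOXB9, HOXC4, HOXC8, HOXC10 and HOXD9. Another 6 (24.0%) were at least 4-fold lower in H1299, against 8.11% of all genes: HOXA3, HOXA9, HOXA11, HOXA13, HOXB13 and HOXC5. At 2-fold, 10 were higher and 8 lower, against 20.5% and 15.2% of all genes. The median log2 ratio over the HOX genes was 0.19, beside 0.11 over all genes. Under the stricter rule for numbered features these medians were 0.55 and 0.15. The call of HOXC5 here was lost under the stricter rule for numbered features, which left 6 and 33 counts and an HCT116 level 5.67 times that of H1299.

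By gene, the ratio of H1299 over HCT116 with DMSO was 271 (175 to 443) for HOXB2 and 16.6 (13.9 to 19.9) for HOXC8. It was 8.80 (7.23 to 10.8) for HOXB3 and 8.75 (7.38 to 10.4) for HOXC10. Under the stricter rule for numbered features it was 773 (375 to 1924) for HOXB2, on 5574 and 7 counts, and 15.2 (12.2 to 19.1) for HOXC10. With joined names added it was 5.80 (4.98 to 6.80) for HOXB3. HOXC4 and HOXB9 followed with 6.48 (4.43 to 9.79) and 4.89 (4.22 to 5.70). HOXD9 was at least 40.8-fold higher in H1299. In the other direction the HCT116 level was 11.9 times that of H1299 for HOXA11, 11.0 times for HOXB13, 19.9 times for HOXC5, 6.22 times for HOXA3, 4.81 times for HOXA9 and 4.12 times for HOXA13. HOXA7, HOXC9 and HOXD8 did not differ between the untreated lines beyond counting error.

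With DAC+SB the order of the lines in HOXA was less marked. The H1299 over HCT116 ratio was 0.822 (0.779 to 0.867) for HOXA, 2.56 (2.44 to 2.69) for HOXB, 2.43 (2.29 to 2.58) for HOXC and 1.25 (1.13 to 1.38) for HOXD. Of 28 HOX genes, 7 (25%) were at least 4-fold higher in H1299, against 8.97% of all genes: HOXB3, HOXB5, HOXB8, HOXB9, HOXC6, HOXC8 and HOXD13. None was at least 4-fold lower in H1299, and 4.65% of all genes were. At 2-fold, 13 were higher and 2 lower, against 25.4% and 12.1%. The HOX median log2 ratio was 0.90, beside 0.29 over all genes. The call of HOXD13 was lost with mitochondrial and ribosomal protein genes out of the denominator. HOXB3, HOXB9 and HOXC8 were called in H1299 with both treatments. HOXB2, 271 (175 to 443) times higher in H1299 with DMSO, was 2.81 (2.54 to 3.10) times higher with DAC+SB. The intervals of HOXC5 and HOXD8 in the treated lines include 1, at 1.08 (0.843 to 1.39) and 1.07 (0.930 to 1.24), but that of HOXD8 was 1.38 (1.18 to 1.61) under the stricter rule for numbered features.

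**Figure D4:**
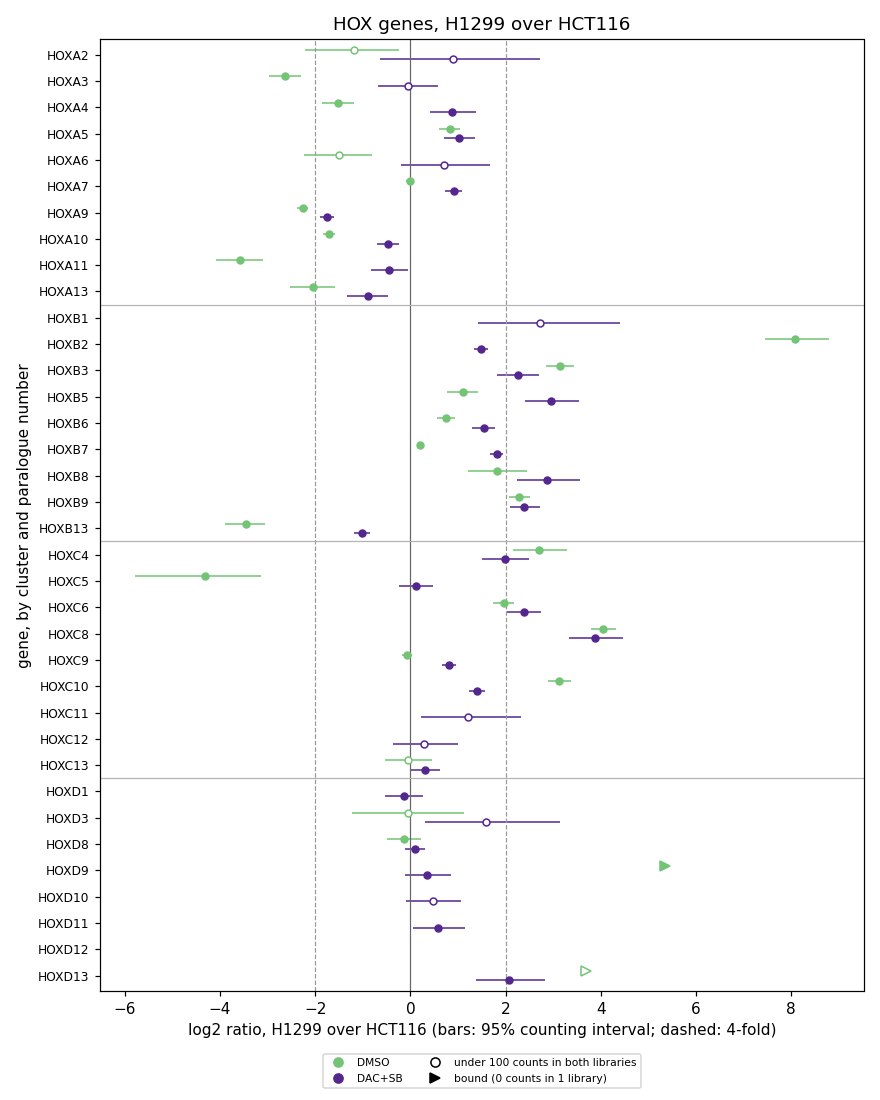
Log2 ratio of H1299 over HCT116 for the HOX genes reported here with DMSO (green) and with DAC+SB (purple), with 95% counting intervals, bounds as triangles and open symbols for under 100 counts in both libraries. Most HOXA genes lie left of 0 with DMSO and fewer do with DAC+SB, and HOXB2 moves from 8.08 to 1.49.

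Counts in single cells show whether a summed level came from many cells or few. In a sum, fewer cells with a gene and fewer counts per cell cannot be told apart. To compare libraries of unequal depth, each cell was thinned at random to 3300 counts, which left out 402 HCT116 DAC+SB cells and none of the others. At that depth a HOX count of any of the 37 genes was found in 70.5% (69.0 to 72.0) of untreated and 58.3% (56.7 to 59.9) of treated H1299 cells, and in 58.7% (57.1 to 60.3) of untreated and 37.4% (35.9 to 38.9) of treated HCT116 cells. Without thinning, at median depths of 17369.5, 15784.5, 16257.5 and 8449 counts, the shares were 98.6%, 95.1%, 95.7% and 64.7%. On average a thinned cell held 1.15 and 0.856 HOX genes in untreated and treated H1299 and 0.849 and 0.467 in HCT116. Without thinning these means were 4.35, 3.59, 3.17 and 1.20. HOXD ran against this order, with a thinned share of cells of 1.40% and 6.20% in H1299 and 0.574% and 3.97% in HCT116 with DMSO and DAC+SB.

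**Figure D5:**
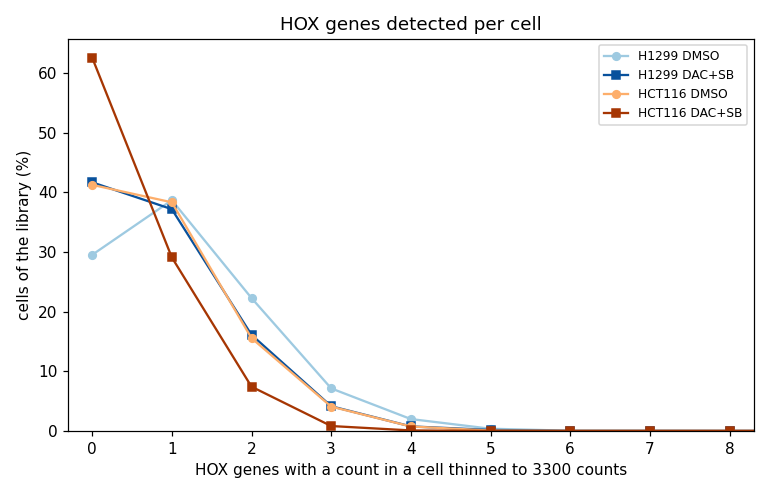
Percentage of cells in each library by the number of HOX genes with a count, after thinning each cell to 3300 counts. In HCT116 DAC+SB 62.6% of cells have none, in H1299 DMSO 29.5%.

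HOXB2 was counted in many H1299 cells and in few HCT116 cells. Without thinning it had a count in 68.3% of untreated and 37.4% of treated H1299 cells, and in 0.355% of untreated and 4.95% of treated HCT116 cells. Treated HCT116 held its HOXB2 unevenly: 43 of the 4327 cells (the top 1%) held 55.9% of the counts, with up to 21 in a cell. In the same library the top 1% of cells by each gene held 18.9% of the 514 HOXB7 counts and 19.7% of the 512 HOXC9 counts. Thinned shares were 23.1%, 10.3%, 0.0547% and 2.39%. HOXB7 went from 56.9% of HCT116 DMSO cells to 10.2% of HCT116 DAC+SB cells, and from 19.4% to 3.85% after thinning. HOXB13 was found in 1.20% and 11.2% of H1299 cells with DMSO and DAC+SB, and in 0.196% and 2.47% after thinning.

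The genes counted only with DAC+SB were rare per cell. HOXD11 had a count in 98 of 3726 H1299 DAC+SB cells (2.63%) and 37 of 4327 HCT116 DAC+SB cells (0.855%), with at most 2 counts in a cell. In the DMSO libraries 0 of 3578 and 0 of 3658 cells had a count, which allows up to 0.0838% and 0.0820% at the limit of 3 counts, or 0.103% and 0.101% by the Clopper-Pearson interval. HOXD1 was found in 116 H1299 DAC+SB cells (3.11%) and 80 HCT116 DAC+SB cells (1.85%), against 3 and 0 cells with DMSO. Any of the 6 genes at 0 with DMSO was found in 308 H1299 DAC+SB cells (8.27%) and 116 HCT116 DAC+SB cells (2.68%), or in 1.61% and 1.10% after thinning. Free RNA can place counts in cells that do not express a gene, and these shares limit cells with a count, not expressing cells.

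Other genes tied to HOX biology were listed to set the members in their pathway. Of 18 RNAs transcribed within the clusters, 13 were found. In H1299, 9 had enough counts, 3 were at least 4-fold higher with DAC+SB and none lower, with a median log2 ratio of 1.20, beside 11.0%, 0.349% and -0.07 over all genes. The 3 were HOXA10-AS (0 and 139 counts), HOXA11-AS (4 and 168) and HAGLR of HOXD (40 and 330). In HCT116 none of 6 was called, with a median of -0.89, beside 9.63% higher, 3.69% lower and -0.23 over all genes. The same shares are the background of the calls of DAC+SB over DMSO in the lists that follow. HOXB-AS1, next to HOXB2 and HOXB3, stood at 21.2 CPM in untreated and 19.1 in treated H1299, and at 0.0479 in untreated and 0.771 in treated HCT116, a line difference in the direction of HOXB2. HOXA10-AS had 0 counts in H1299 DMSO and 20.3 CPM in HCT116 DMSO. The sources used here do not say whether counting used the strand, so reads of a HOX gene and of an overlapping antisense RNA may not be kept apart.

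Of the 9 TALE cofactors, 2 of 9 were at least 4-fold higher with DAC+SB in H1299, MEIS3 (0.294 and 3.64 CPM) and PKNOX2 (0 and 146 counts), and none lower. In HCT116 none of 7 was higher and PBX2 was lower (13.1 and 1.03 CPM). Between the untreated lines 1 of 7 was at least 4-fold higher in H1299, PBX3 (66.2 CPM in H1299 and 5.68 in HCT116), and 2 were lower, among them MEIS3 (0.294 and 10.4 CPM). Over all genes 9.92% were higher and 8.11% lower in that comparison of the lines. Among 22 Polycomb genes, none was at least 4-fold higher in either line. PHF19, a PRC2 accessory protein, was lower in both (300.5 and 44.7 CPM in H1299, 56.3 and 5.68 in HCT116), and PCGF2, a PRC1 subunit, in HCT116 (23.8 and 5.19 CPM). Their median log2 ratios were -0.40 and -0.75. None of 15 trithorax and MLL genes was called with treatment in either line, with medians of -0.14 and -0.64.

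Of 16 retinoic acid pathway genes, 3 of 9 were at least 4-fold higher with DAC+SB in H1299, against 11.0% of all genes. They included CRABP2, which carries retinoic acid in the cell (3.07 and 32.8 CPM), and ALDH1A2, which makes retinoic acid (0.341 and 2.84 CPM). In HCT116 1 of 10 was higher, against 9.63% of all genes, CRABP1 (0 and 412 counts), and 2 were lower, against 3.69%, the receptor RARG (16.9 and 2.54 CPM) and DHRS3 (3.77 and 0.642 CPM). CDX2, a ParaHox gene of the gut that regulates HOX genes, had 13.97 CPM in untreated and 6.40 in treated HCT116, against 0.0155 and 0.288 in the H1299 libraries. The other 7 listed ParaHox and cluster neighbour genes had too few counts in every comparison.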

How the data were processed

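The authors deposited whole-number counts per feature and cell, 1 table of genes and 1 of transposable elements (TE). Cells carry the library name, and all 15289 had at least 500 counts and were used. Per the labels' protocols, reads hold a cell barcode and a molecular identifier. Not given in the sources used here: whether the counts are of molecules, the roles of the tools, the annotation, the strand setting and the cell filter. The submitters' processing notes name CASAVA, STAR and the builds GRCh38 and hg38. No doublet caller was run.

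Features naming 1 gene were summed per gene and library, numbered features included, and divided by gene plus TE counts. Intervals are exact Poisson for levels, exact conditional binomial for ratios, Clopper-Pearson for shares, and the normal approximation for differences between lines. A library at 0 was set to 3 counts, and no ratio is given where both had at most 3. The other library was taken at its observed counts, so these bounds leave out its counting error. Members with at least 100 counts in 1 library are described with their levels, the others by counts. Calls were planned with a minimum of 100 counts in the higher library. The minimum was applied to either compared library, which left the number of genes called the same. The calls and intervals were run on simulated Poisson counts with known ratios. Those counts hold no variation between cells or replicate libraries, so this checks the computation and not the calls made here. Alternatives were joined names, numbered features listed in both libraries, other denominators, cell filters, a mean over cells, count minimums, a 2-fold threshold and, added after seeing the data, the anterior sum without HOXB2. The HOX sum without HOXB2 and HOXB7 was not named in the plan either. Python 3.11.15, NumPy 2.4.6, SciPy 1.17.1 and matplotlib 3.10.9 were used. Gene positions are from GENCODE v29 and promoters from RefSeq, both matched by symbol. Values of 1 member and of some other listed genes are not reported here, though sums and counts include them. The members and gene lists were chosen with earlier results of these data known.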

Additional observations from a re-analysis of the deposited data

Results flagged for a closer look

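HOXA11 and HOXB2 were on opposite sides of DMSO in the lines, at least 2-fold each and beyond counting error. The log2 ratio of DAC+SB over DMSO was 1.73 in H1299 and -1.40 in HCT116 for HOXA11, and -1.31 in H1299 and 5.29 in HCT116 for HOXB2. With 1 library per group these differences between the lines were not tested. HOXD4, outside the members because it is listed only under a name joined to another gene, had 12 and 59 counts in H1299 and 10 and 23 in HCT116 with DMSO and DAC+SB. The ratios were 5.08 and 3.70, and the counts cannot be given to HOXD4 alone.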

How the results depend on the processing

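No result changed direction among the called genes. Lowering the minimum to 20 counts or to 1 count gave 10 genes at least 4-fold higher in H1299 under both, and 8 and 9 in HCT116, with the shares of all genes given in the results. A 2-fold threshold gave 10 higher and 3 lower in H1299, 5 higher and 9 lower in HCT116, and 13 higher and 2 lower in H1299 against HCT116 with DAC+SB. A mean over cells left 1 gene higher in HCT116, as HOXC10 was under the threshold. With numbered features kept only if both compared libraries list them, HOXD1 and HOXD11 (H1299) dropped under 100 counts, and the HOX sums had log2 ratios of -0.52 (H1299 treatment), 0.48 (lines, DMSO) and 0.86 (lines, DAC+SB), against -0.43, 0.42 and 0.81 as reported. HOXD11 also dropped under 100 counts without the 5% of cells with most counts, and HOXC5 with DMSO lost its call over numbered features. Scaled to gene counts alone the sums were -0.39 in H1299 and -0.75 in HCT116 (-0.83 as reported). Without mitochondrial and ribosomal protein genes they were 0.32 and 0.71 between the lines with DMSO and DAC+SB, HOXD13 lost its call with DAC+SB, and the median of all genes there went from 0.29 to 0.19. Without cells above 25% mitochondrial counts the sum was 0.77 with DAC+SB. Without HOXB2 and HOXB7 the sums between the lines were 0.005 with DMSO and 0.57 with DAC+SB, so the difference with DMSO depends on these genes. Without HOXB2, an alternative chosen after seeing the data, the anterior sum turned from 0.73 to -0.32 in HCT116 and went from -1.03 to -0.25 in H1299. No paired analysis was run, as the labels give no replicate numbers and a fit with the lines as pairs would take their differences in response as error. Leaving out a library would remove its group. Precision is set by depth for HOXD, where 1 or 2 of 8 genes had at least 100 counts in each library other than treated H1299 (5 of 8), and by the missing replicates throughout.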
